A study of Mus musculus with 12 samples.

Results

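Cerebellar RNA of 12 mice, measured on 1 Affymetrix whole-transcript array per mouse, was divided by the level of Ttr, the messenger of transthyretin. Arrays with a log2 intensity of Ttr above 12.5 are called Ttr-rich (5 arrays) and those below 10.5 Ttr-poor (4 arrays), so that 9 of the 12 arrays are compared and 3 lie between the limits. The mice belong to 4 groups of 3: WT_male and WT_female, the controls, and KO_male and KO_female, which lack Ciz1, a gene for a nuclear protein linked to DNA replication and to the localisation of Xist RNA. The labels describe the controls as wild type in the source name, as Ciz1+/+ in the extraction protocol and as Ciz1+/- in the genotype field. They give the deficiency as germline and do not say how the allele was made. The mice were 10 months old by the protocol and 6 to 10 months by the series design, and each array holds 1 animal. Replicate numbers only name an array.

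The choroid plexus is a frond of vascular stroma covered by a single layer of ciliated epithelium. It hangs in the brain ventricles, the fourth of which lies directly under the cerebellum, and its epithelium secretes cerebrospinal fluid by moving ions and water from blood to ventricle. Transthyretin, a carrier of thyroid hormone and retinol, is among the most abundant messengers of that epithelium and is scarcely made by neurons or glia. In a whole dissected tissue, more cells of a type and more RNA per cell cannot be told apart.

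The 5 Ttr-rich arrays were WT_male replicate 1 at 13.33, WT_female replicate 2 at 13.32, KO_female replicate 2 at 13.11, KO_male replicate 2 at 12.87 and WT_female replicate 3 at 12.60. The 4 Ttr-poor arrays were KO_male replicate 3 at 10.06, KO_male replicate 1 at 9.40, WT_female replicate 1 at 8.88 and KO_female replicate 1 at 7.59. Between the limits lay WT_male replicate 2 at 11.51, WT_male replicate 3 at 11.13 and KO_female replicate 3 at 10.80. Both genotypes and both sexes occur in each class, but unevenly: the rich class has 3 controls and 2 knockouts, the poor class 1 control and 3 knockouts. Genotype was therefore a covariate in the differences between the classes, unless a value within a group or another fit is named. No control male was poor.

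The arrays were chosen by their measured level of Ttr, so differences between the classes are descriptions and carry no test. Each is the genotype-adjusted mean of the rich arrays minus that of the poor arrays on the log2 scale. Its standard error (SE) is the moderated one of limma over the 9 arrays, drawn toward the variance of all genes. A gene is counted as higher when all 5 rich arrays lie above all 4 poor arrays and the difference is at least 0.5, and as lower in the mirror case. By that reading 34 of 22180 genes were higher, which is 0.153%, and 11 were lower, which is 0.0496%. Without the size limit, 345 genes (1.56%) lay above and 330 genes (1.49%) lay below in every rich array. The median difference over all genes was -0.01 and 47.3% of genes were positive.

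The markers named for the epithelium were higher in the rich arrays. Folr1, Clic6 and Kl were named together with the Ttr rule that chose the arrays, so they are no independent check of it. Besides Ttr, whose separation was fixed by the choice of arrays, 10 markers were measured. Of these, 6 were counted as higher and 9 lay above every poor array, with differences from 0.34 for Kcne2 and Aqp1 to 2.30 for Kl. Otx2, a transcription factor of the epithelium, was the exception, since its ranges overlapped. The 6 measured markers of cerebellar neurons and glia were bright on all arrays, with means over the 12 arrays between 9.69 and 12.3. Their differences ran from -0.17 for Mbp to 0.28 for Gdf10, and none was counted. Of the 6, 1 lay above every poor array: Calb1, whose lowest rich and highest poor values were 12.312 and 12.306. Enpp2, a marker of the epithelium, and Pcp2, a marker of Purkinje cells, were not analysed here.

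Arrays can also be checked against their labels. Ciz1 lay between 6.82 and 7.31 on the 6 knockout arrays and between 8.70 and 8.90 on the 6 control arrays, so these did not overlap; whether the probes lie in the altered part of the gene is not known. Xist, the RNA of the inactive X chromosome, stood at 8.71 on WT_male replicate 3, against 5.75 to 6.67 on the other males and 11.9 to 12.3 on the females. The Y-linked gene Eif2s3y, at 8.96 on that array, was within the range of the other males, and Kdm5d at 8.56 and Uty at 8.88 were the lowest of the 6 males, far above the females at 4.77 or less and 5.39 or less. That array lies between the Ttr limits, so it enters the genotype and sex tests and the values of the arrays between the limits, but not the comparison of rich with poor arrays.

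**Figure D1:**
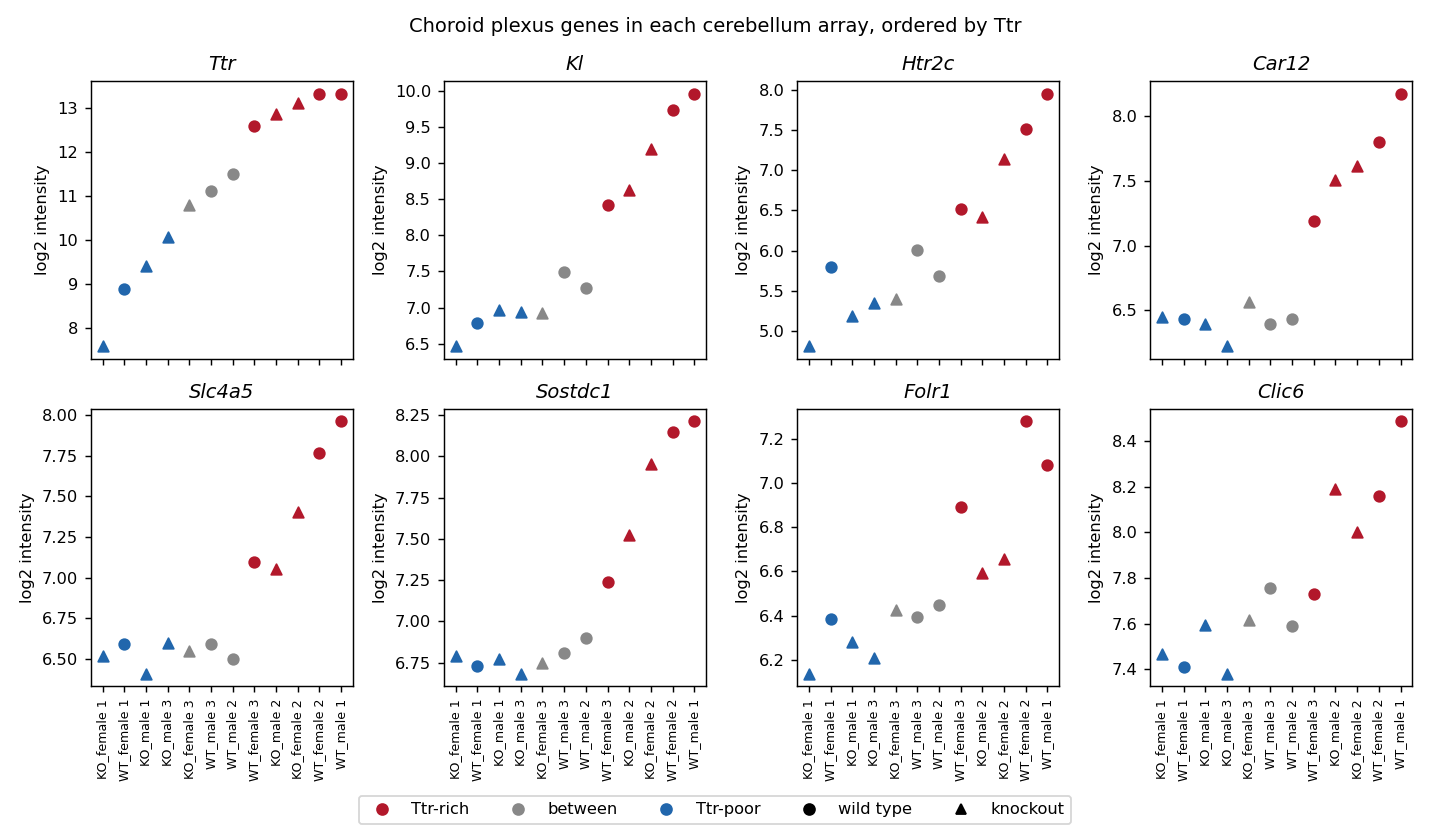
Log2 intensity (vertical axes) of 8 choroid plexus genes on each of the 12 arrays, ordered from left to right by Ttr; colour gives the Ttr class and symbol shape the genotype. The 5 Ttr-rich arrays lie above the 4 Ttr-poor arrays in every panel, and for Kl and Car12 the 3 arrays between the limits lie close to the poor ones.

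Mir1912 and Snora35, small RNAs that lie inside the serotonin receptor gene Htr2c, were among the 34 higher genes. Htr2c encodes a serotonin receptor long known for its density on choroid plexus epithelium, and its span on the X chromosome holds several microRNA genes and 1 small nucleolar RNA gene. Mature microRNAs of that span are shown because their host and their neighbours differed in size of response. Sequences are from RefSeq, GRCm38.p6, plus strand, 5′ to 3′, with the seed (bases 2 to 8) in capitals.
mmu-miR-764-5p, chrX:147002285-147002303: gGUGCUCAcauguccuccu
mmu-miR-1912-3p, chrX:147009493-147009514: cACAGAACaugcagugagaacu
mmu-miR-1264-3p, chrX:147010655-147010676: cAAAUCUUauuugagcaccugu
mmu-miR-1298-5p, chrX:147064918-147064939: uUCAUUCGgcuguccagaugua
mmu-miR-448-3p, chrX:147158281-147158302: uUGCAUAUguaggaugucccau
No seed in the span occurred more than 1 time there. The array row of Mir1912 was 1.25 higher (SE 0.26) in the rich arrays, a 2.37-fold difference, with rich values from 6.29 to 7.76 and poor values from 5.48 to 5.76. Snora35, the small nucleolar RNA, was 0.92 higher (SE 0.25), with rich values from 6.75 to 7.95 and poor values from 5.91 to 6.56. The other rows differed less. Mir764 was 0.14 higher (SE 0.06) without overlap, Mir1264 was 0.33 higher (SE 0.21) with overlap, Mir1298 was 0.05 higher (SE 0.10) and Mir448 was -0.09 (SE 0.06). Whether these probes read the mature form, the hairpin or the intron of the host is not stated in the labels.

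Htr2c itself was 1.61 higher (SE 0.29), a 3.05-fold difference. Its rich values were 7.95 in WT_male replicate 1, 7.51 in WT_female replicate 2, 7.14 in KO_female replicate 2, 6.51 in WT_female replicate 3 and 6.41 in KO_male replicate 2. The poor values were 5.79 in WT_female replicate 1, 5.34 in KO_male replicate 3, 5.18 in KO_male replicate 1 and 4.82 in KO_female replicate 1. The classes did not overlap, as was the case for Mir1912 and Snora35.

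Secreted proteins and carriers had the highest median of the 25 lists. Of 20 measured genes in that list, 9 were counted as higher and none as lower, 18 were positive, and the median difference was 0.40. The members and lists were chosen with results of these data known, so the counts describe them and carry no test. The count and the median include Ttr, whose gap of 4.06 (SE 0.45), or 16.7-fold, follows from the limits that chose the arrays. The list median was 0.08 within WT_female, 0.45 within KO_male and 0.62 within KO_female.

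Kl, which encodes klotho, a co-receptor of fibroblast growth factor 23 that is abundant in choroid plexus, was next. Its rich values were 9.97 in WT_male replicate 1, 9.74 in WT_female replicate 2, 9.20 in KO_female replicate 2, 8.63 in KO_male replicate 2 and 8.42 in WT_female replicate 3. The poor values were 6.96 and 6.94 in KO_male replicates 1 and 3, 6.79 in WT_female replicate 1 and 6.47 in KO_female replicate 1. The lowest rich array was more than 1 log2 unit above the highest poor array, and the adjusted difference was 2.30 (SE 0.32), or 4.93-fold.

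F5 encodes coagulation factor V. It ranged from 6.23 in WT_female replicate 3 to 7.83 in WT_male replicate 1 among the rich arrays, with 7.37, 6.77 and 6.70 in WT_female replicate 2, KO_female replicate 2 and KO_male replicate 2. The poor arrays lay close together at 5.34, 5.55, 5.60 and 5.68, and the difference was 1.39 (SE 0.30). Sostdc1, a secreted antagonist of BMP and Wnt signalling, had rich values of 8.21, 8.15, 7.96, 7.53 and 7.24 and poor values of 6.79, 6.77, 6.73 and 6.68. Its poor arrays spanned far less than its rich arrays, and the difference was 1.05 (SE 0.20).

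The other counted carriers were smaller. Calml4, a calmodulin-like protein, was 0.85 higher (SE 0.15), Lbp, the lipopolysaccharide binding protein, 0.82 (SE 0.15), and Ecrg4, a secreted peptide precursor of the epithelium, 0.80 (SE 0.16). Ace, the angiotensin converting enzyme, was 0.66 higher (SE 0.15) and Igfbp2, a binding protein of insulin-like growth factors, 0.61 (SE 0.13). Igf2, the growth factor, lay above every poor array but by only 0.38. Rbp4, which carries retinol together with transthyretin, was 0.42 higher with overlapping ranges (rich 7.59 to 7.99, poor 7.01 to 7.65).

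Some secreted proteins that the epithelium makes, but that other brain cells make as well, hardly differed. Clu, the chaperone clusterin, was 0.01 (SE 0.06), with values from 10.21 to 10.40 in the rich and 10.20 to 10.34 in the poor arrays. Vegfa, an angiogenic growth factor, was -0.02 (SE 0.07). Cst3, the protease inhibitor cystatin C, was 0.09 and Ptgds, prostaglandin D synthase, 0.15. Clu and Vegfa were already bright on the poor arrays, at means of 10.3 and 8.90.

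Genes of ion and water transport, the machinery of fluid secretion, showed 7 counted members of 44, with 36 positive and a median of 0.16. Another 8 of the 44 lay above every poor array by less than 0.5. Car12, a membrane carbonic anhydrase, led at 1.24 (SE 0.17). Its rich values were 8.17 in WT_male replicate 1, 7.80 in WT_female replicate 2, 7.62 in KO_female replicate 2, 7.50 in KO_male replicate 2 and 7.19 in WT_female replicate 3, and its poor values were 6.45, 6.43, 6.39 and 6.22. Slc4a5, a sodium bicarbonate cotransporter, stood at 7.96, 7.77, 7.40, 7.05 and 7.09 in the same order of rich arrays. The poor arrays held 6.41 to 6.60, a difference of 0.83 (SE 0.18). WT_male replicate 1 was highest and WT_female replicate 3 or KO_male replicate 2 lowest in both.

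Trpv4, a cation channel that responds to osmotic and mechanical stimuli, was 0.73 higher (SE 0.13). Clic6, a chloride intracellular channel protein used as a marker of the epithelium, had rich values of 8.49, 8.16, 8.0, 8.19 and 7.73 in the order given for Car12. Its poor values were 7.60 in KO_male replicate 1, 7.47 in KO_female replicate 1, 7.41 in WT_female replicate 1 and 7.38 in KO_male replicate 3. The gap between the lowest rich and the highest poor array was narrow, and the difference was 0.65 (SE 0.14). Folr1, the folate receptor that carries folate into cerebrospinal fluid, had rich values of 7.28 in WT_female replicate 2, 7.08 in WT_male replicate 1, 6.89 in WT_female replicate 3, 6.66 in KO_female replicate 2 and 6.59 in KO_male replicate 2. The 3 control arrays were the highest. Its poor values were 6.38, 6.28, 6.21 and 6.14, of which the control, WT_female replicate 1, was the highest, and the difference was 0.53 (SE 0.09).

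Tmem72, a transmembrane protein, was 0.59 higher (SE 0.17), and Slc13a4, a sulfate transporter, 0.57 (SE 0.09). Slc13a4 was the brightest of the counted transporters, at a mean of 8.84 in the rich and 8.30 in the poor arrays. Kcne2, a potassium channel subunit of the epithelium, and Aqp1, its apical water channel, were each 0.34 higher and did not overlap between the classes. The sodium, potassium and chloride cotransporter Slc12a2 was -0.00 (SE 0.07), with rich values from 10.26 to 10.47 and poor values from 10.22 to 10.45. Atp1b1, a subunit of the sodium pump, was 0.02, and both are widely expressed in the brain.

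Epithelial junction genes were positive in 22 of 23 cases, with a median of 0.15, and 1 was counted. Cldn1, a tight junction claudin, was 0.87 higher (SE 0.16). Its rich values were 7.57, 7.37, 7.14, 6.86 and 6.82 in WT_male replicate 1, WT_female replicate 2, KO_female replicate 2, KO_male replicate 2 and WT_female replicate 3, and its poor values lay between 6.00 and 6.45. Cldn2, the claudin that lets cations and water pass between epithelial cells, did not overlap and was 0.45 higher (SE 0.14). Perp, a desmosomal protein, was 0.48 higher, but its lowest rich value of 6.43 lay below its highest poor value of 6.51.

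Transcription factors and patterning genes were near the median of all genes. Of 29, 17 were positive, the median was 0.03 and 1 was counted. That gene was Gmnc, a factor at the head of the multiciliated cell programme, at 0.60 (SE 0.17). Its rich values ran from 5.81 to 6.66 and its poor values from 5.35 to 5.73. Bmp7 was 0.48 higher (SE 0.08) and Bmp4 0.41 higher (SE 0.11), both secreted signals and both without overlap. Otx2 was 0.41 higher (SE 0.15), from 7.50 to 8.29 in the rich and 7.21 to 7.57 in the poor arrays. KO_male replicate 3 at 7.52 and WT_female replicate 1 at 7.57, both poor, lay above the rich array WT_female replicate 3 at 7.50. Foxj1, the main factor of motile cilia, was 0.07.

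Among receptors, enzymes and matrix genes of the tissue, 5 of 35 were counted, 32 were positive and the median was 0.16. Besides Htr2c these were Col8a1, a short-chain collagen, at 0.63 (SE 0.13), Drc7, a part of the dynein regulatory complex of cilia, at 0.61 (SE 0.16), Capsl at 0.56 and Pon3, a lactonase of the paraoxonase family, at 0.54. Gpx8, a peroxidase of the endoplasmic reticulum, was 0.65 higher (SE 0.12), but its poor array KO_female replicate 1 at 8.28 reached above the rich array WT_female replicate 3 at 8.25. Over the 5 lists of choroid plexus genes together, 23 of 151, Ttr included, were counted as higher (15.2%, beside 0.153% of all genes), 44 lay above at any size (29.1%, beside 1.56%) and 125 were positive, with a median of 0.14. None was counted as lower, beside 0.0496% of all genes.

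**Figure D2:**
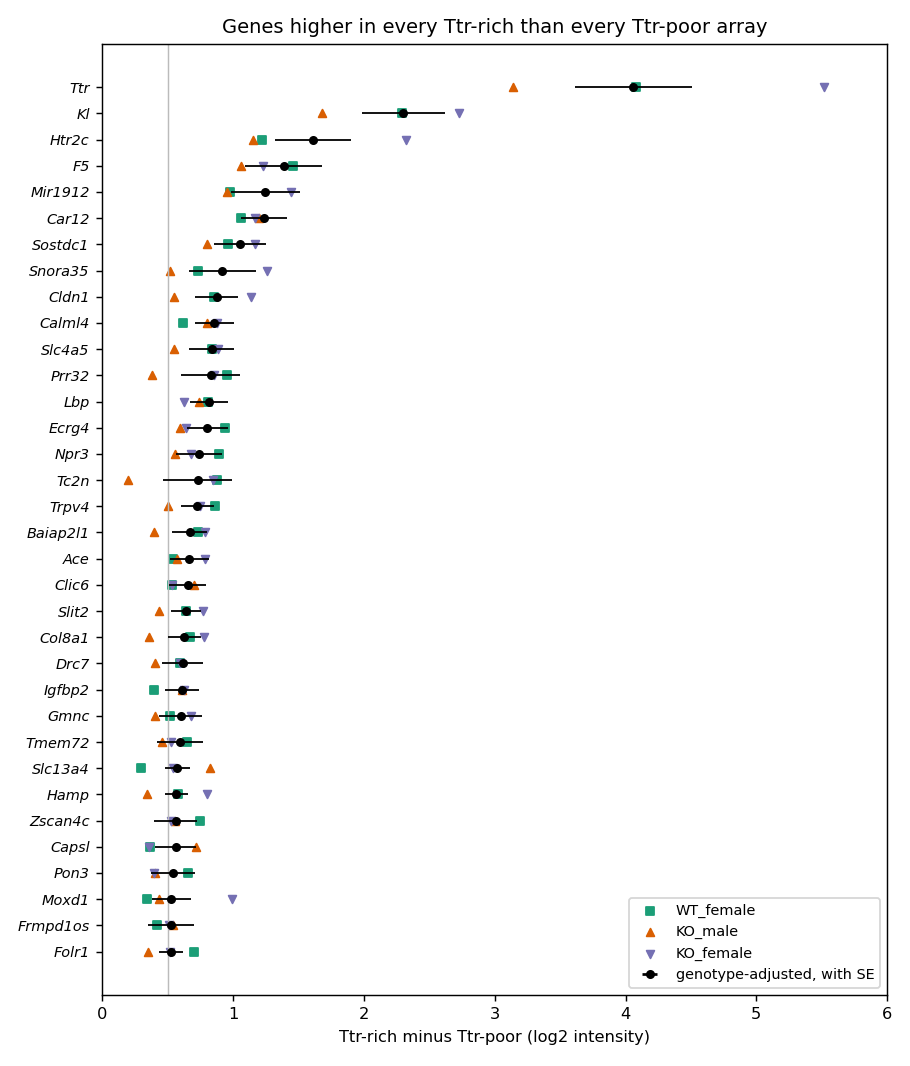
Difference between Ttr-rich and Ttr-poor arrays in log2 intensity (horizontal axis) for the 34 genes counted as higher; black points are genotype-adjusted differences with their SE, coloured symbols the differences within WT_female, KO_male and KO_female, and the grey line the limit of 0.5. Ttr, which chose the arrays, stands at 4.06 and Kl at 2.30, and the positive sign in each group follows from how the genes were counted.

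WT_female, KO_male and KO_female each hold arrays of both classes, 1 or 2 of a class. The sign of a counted gene within them is fixed by the counting, so only sizes are given. Kl was 2.29 higher within WT_female, 1.68 within KO_male and 2.73 within KO_female, and Htr2c was 1.22, 1.15 and 2.32. KO_male, whose poor arrays have the highest Ttr levels of the poor class, also had the smallest Ttr difference, at 3.14 beside 4.08 and 5.51.

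Of the 34 genes, 23 are in the choroid plexus lists and 11 are in no list. Besides Mir1912 and Snora35 the 11 were Prr32, Npr3, Tc2n, Baiap2l1, Slit2, Hamp, Zscan4c, Moxd1 and Frmpd1os. Npr3, the clearance receptor of natriuretic peptides, was 0.74 higher (SE 0.18), with rich values from 6.70 to 7.69 and poor values from 6.30 to 6.43. Slit2, a secreted guidance protein known to be made by choroid plexus, was 0.64 higher (SE 0.11), from 6.76 to 7.26 against 6.19 to 6.47. Baiap2l1, an adaptor of the actin cytoskeleton in epithelia, was 0.67 higher (SE 0.13). Prr32 was 0.83 higher (SE 0.23) and Tc2n 0.73 higher (SE 0.26). Tc2n was uneven: WT_female replicate 2 stood at 6.03, WT_male replicate 1 at 6.01 and KO_female replicate 2 at 5.59, but KO_male replicate 2 at 4.93 and WT_female replicate 3 at 4.88 were close to the highest poor value of 4.86. Hamp, the iron hormone hepcidin, was 0.57 higher (SE 0.09) but among the dimmest genes on the array, brighter than only 2.63% of genes. Only 8 of the 34 were above the median brightness of all genes.

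The rich arrays were not alike. The mean of the 33 higher genes other than Ttr was 7.30 in WT_male replicate 1, 7.20 in WT_female replicate 2, 6.94 in KO_female replicate 2, 6.70 in KO_male replicate 2 and 6.56 in WT_female replicate 3. Ttr gave the same order. WT_male replicate 1 was the highest rich array in 21 of the 33 genes and WT_female replicate 2 in 9, while WT_female replicate 3 was the lowest in 23 and KO_male replicate 2 in 9. The 4 poor arrays lay together between 6.05 and 6.10, while their Ttr levels spanned from 7.59 to 10.06. On the linear scale those Ttr levels ran from 193 to 1069, beside 6190 to 10298 in the rich arrays.

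The 3 arrays between the limits were not used to choose or count any gene. Their means of the 33 genes were 6.17 to 6.27, just above the poor arrays and below every rich array. Placed on the linear scale between the mean of the poor arrays (0%) and that of the rich arrays (100%), their Ttr intensity stood at 21.4%. The median over the 33 other genes was 10.1%, and 26 of the 33 were below the position of Ttr. These arrays are defined by a Ttr level between the limits, so Ttr had to stand between the ends. The other genes were counted because they separate the same rich and poor arrays whose means form the ends. That choice can widen the gap between the ends, so their place relative to Ttr is a description and was not tested. Without WT_male replicate 3, the array with the raised Xist level, Ttr stood at 21.9% and the median was 6.12%, with 27 of the 33 below Ttr. Kl was at 7.78%, Htr2c at 11.5%, Car12 at 4.28% and F5 at 2.60%, whereas Calml4 was at 37.4% and Folr1, at 21.1%, was near Ttr. Of the 99 single values, 46 lay above every poor array, 44 lay within the poor range and 12 reached the lowest rich array. Zscan4c, at 91.7%, was as high in these arrays as in the rich ones and so did not follow their Ttr level.

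**Figure D3:**
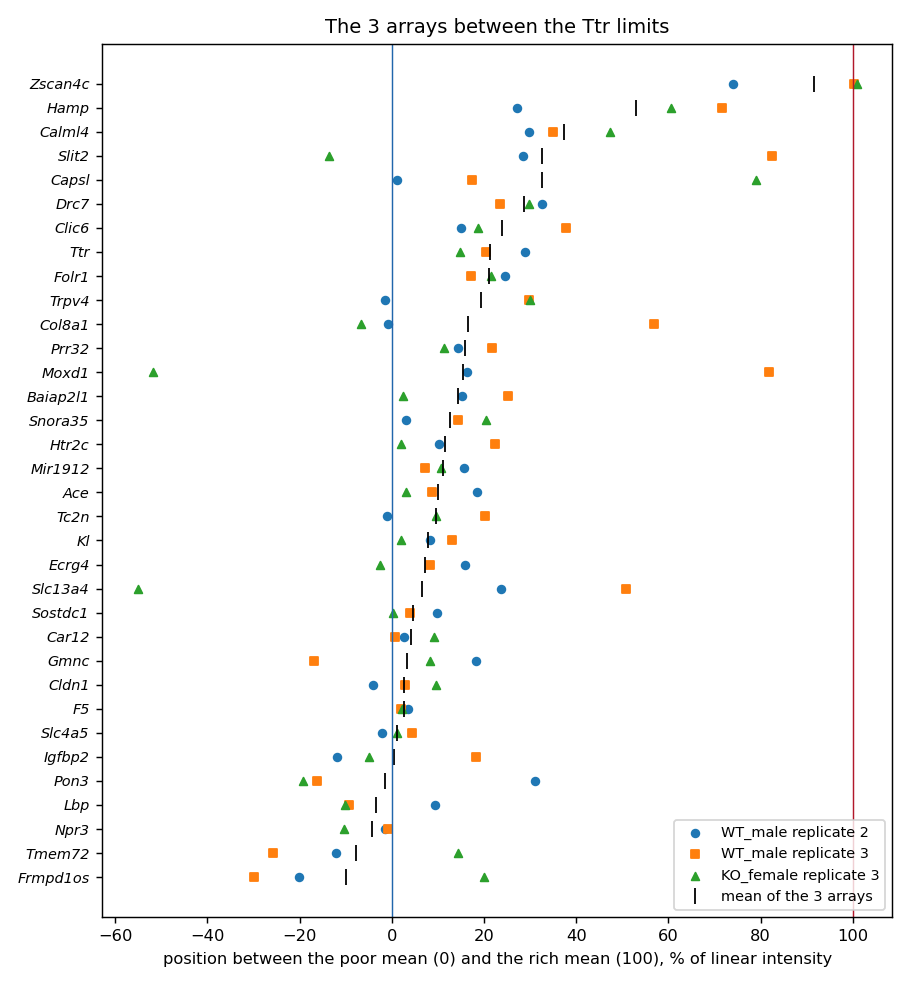
Position of the 3 arrays between the Ttr limits on the way from the mean of the Ttr-poor arrays (0) to the mean of the Ttr-rich arrays (100), in percent of linear intensity (horizontal axis), for the 34 higher genes; symbols are single arrays and the bar is their mean. Ttr, whose place between the ends follows from the limits, is at 21.4%. The other 33 genes have a median of 10.1%, and most symbols lie near the poor end.

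Lists of other structures that border the ventricle or surround the plexus held few counted genes. Their medians were not all smaller: fibroblast genes stood at 0.23, beside 0.14 for the 151 choroid plexus genes. Motile cilium genes, shared by the ependyma that lines the ventricle and by plexus epithelium, were positive in 43 of 49 cases, with a median of 0.13. None was counted and 6 lay above every poor array. Drc7 and Gmnc, described above as tied to cilia, were counted but stand in choroid plexus lists. The absence of counted genes here thus depends on how genes were assigned to lists. Ak7, an adenylate kinase of cilia, was 0.39 higher (SE 0.08), with 5.87 to 6.16 in the rich and 5.44 to 5.67 in the poor arrays. Efcab1 was 0.51 higher (SE 0.17) and Nme5 0.44 higher (SE 0.14), both with overlap. In Efcab1 the poor array KO_male replicate 1 at 4.79 lay within the rich range, and in Nme5 the rich array WT_female replicate 3 at 6.25 lay below all 4 poor arrays at 6.28 to 6.41. The 15 genes of the ependyma list had a median of 0.12, of which 12 were positive.

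Fibroblast genes of meninges and plexus stroma were positive in all 39 cases, with a median of 0.23, but only Igfbp2, which also stands in the carrier list, was counted, and 5 lay above at any size. Islr, a secreted protein of fibroblasts, was 0.64 higher (SE 0.15). Its rich values were 9.58, 9.42, 8.98, 8.94 and 8.60, and the poor array KO_female replicate 1 at 9.06 exceeded 3 of them. The other poor arrays lay between 8.47 and 8.55. Dcn, a matrix proteoglycan, was 0.44 higher, with 9.91 in KO_male replicate 2 and 9.42 in KO_female replicate 2 above the rich control arrays at 8.99 to 9.32. In Islr and Dcn the highest arrays were thus knockouts, whereas Kl and Car12 were highest in the controls WT_male replicate 1 and WT_female replicate 2. The median was 0.08 within WT_female, 0.33 within KO_male and 0.31 within KO_female. Collagen genes of the list were at 0.08 for Col1a1 and 0.03 for Col3a1.

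Lists of vessels and immune cells had medians near that of all genes. None of 31 endothelial and pericyte genes was counted or lay beyond the poor range at any size. Over all genes 1.56% lay above and 1.49% below at any size, so none of 31 is near that share. Of the 31, 17 were positive and the median was 0.02. Plvap, a protein of the fenestrated vessels that plexus stroma contains, was -0.09. Macrophage genes of the brain borders had 12 of 18 positive and a median of 0.05, led by the antigen presentation genes H2-Ab1 at 0.30, H2-Aa at 0.27 and H2-Eb1 at 0.22, each with overlapping ranges. Microglial genes had 7 of 19 positive and a median of -0.02, but the median was -0.13 within WT_female and 0.12 within KO_male, and without WT_female replicate 1 the list median turned to 0.05.

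Mature oligodendrocytes, the myelin-forming glia of the white matter, stood on the lower side. Their genes were negative in 22 of 23 cases, with a median of -0.17, and none was counted. Mag, a myelin adhesion protein, was -0.34 (SE 0.07), but its values overlapped. They were 9.62 in WT_female replicate 3, 9.58 in WT_female replicate 2, 9.49 in WT_male replicate 1, 9.17 in KO_female replicate 2 and 9.12 in KO_male replicate 2 among the rich arrays, and 9.82 in WT_female replicate 1, 9.69 and 9.55 in KO_male replicates 1 and 3 and 9.39 in KO_female replicate 1 among the poor arrays. Within each genotype the rich arrays were the lower ones, and knockout arrays were lower than control arrays of the same class. Aspa, an enzyme that breaks down N-acetylaspartate in oligodendrocytes, was -0.36 (SE 0.10), Ermn, a cytoskeletal protein of myelin, -0.32 (SE 0.10), and Mbp, myelin basic protein, -0.17. Ppp1r14a, at -0.31, was the only member of the list with all rich arrays below all poor arrays. The list median was -0.11 within WT_female, -0.26 within KO_male and -0.06 within KO_female, with 6, 1 and 9 of 23 genes positive. It was -0.06 when genotype was left out of the fit and -0.11 without KO_male replicate 1.

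Granule cells, the most numerous neurons of the cerebellum, had 21 of 25 genes negative and a median of -0.05. The median was -0.00 within WT_female and -0.01 within KO_female, with 12 and 10 of 25 positive, and -0.14 within KO_male, with 3 positive. Grin2c, an NMDA receptor subunit of mature granule cells, was -0.12 (SE 0.05), with rich values from 9.91 to 9.96 and poor values from 9.99 to 10.15, which do not overlap. Gabra6, a GABA receptor subunit, was -0.11. Purkinje cell genes lay on the other side: 21 of 23 were positive, with a median of 0.09. Foxp2, a transcription factor of Purkinje cells, was 0.22 (SE 0.06), and Calb1, the calcium buffer calbindin, was 0.12, with 12.31 to 12.49 in the rich and 12.25 to 12.31 in the poor arrays. Purkinje genes had medians of 0.04, 0.18 and 0.03 within WT_female, KO_male and KO_female, so KO_male was the largest in this list as it was in oligodendrocytes.

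Interneuron genes had a median of 0.03, and Pax2, a factor of inhibitory interneurons, was -0.33 (SE 0.08), with 6.55 to 6.74 in the rich and 6.75 to 7.12 in the poor arrays. Bergmann glia and astrocyte genes had a median of 0.04. Lists of tissue next to the cerebellum were near the median of all genes. Hox genes, active in the hindbrain behind it, had a median of 0.01 with 11 of 20 positive. Brainstem neuron genes had a median of 0.02, among which Th, the rate-limiting enzyme of catecholamine synthesis, was 0.37 (SE 0.12) and did not overlap. Midbrain genes had a median of -0.02.

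Lists on cell state had small medians. Immediate early genes had a median of 0.06, with 20 of 28 positive. Their median was 0.12 within WT_female, 0.02 within KO_male and 0.06 within KO_female. The largest difference in that list was 0.38 for Fos, with overlapping ranges. Chaperones of the endoplasmic reticulum had a median of 0.03 and oxidative phosphorylation genes -0.03. The retinoid handling list, at 0.13 over 12 genes, holds Ttr and Rbp4 itself. Precursors of oligodendrocytes were at 0.01, and 5 measured blood genes were at 0.06, with haemoglobin genes not analysed here.

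**Figure D4:**
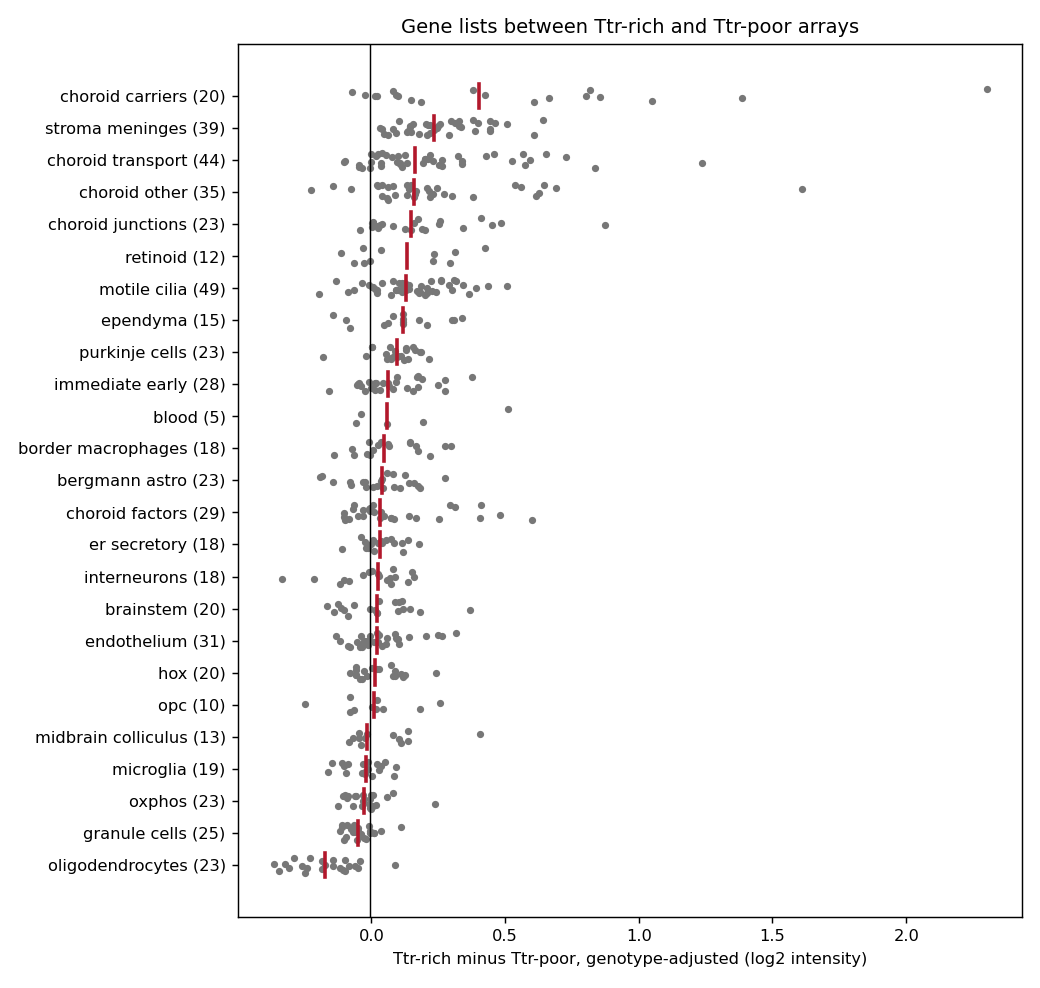
Genotype-adjusted difference between Ttr-rich and Ttr-poor arrays in log2 intensity (horizontal axis) for each member (grey points, Ttr left out) of the 25 gene lists, with the number of members in brackets, the list median as a red bar and the median of all genes as a black line. Choroid plexus carriers have the highest median at 0.40, stroma and meninges stand at 0.23, and oligodendrocytes have the lowest at -0.17. The medians of the carrier and retinoid lists include Ttr.

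The 11 lower genes were unlike the higher ones. They included 5 olfactory receptor genes, their differences ran from -0.50 to -0.78, and none was in any list. All but Snord35b, a small nucleolar RNA, were dimmer than the median gene, with the next brightest above only 24.3% of genes. Kng2, a kininogen, was -0.55 (SE 0.07), with 5.22 to 5.65 in the rich and 5.75 to 6.06 in the poor arrays. Krtap1-5, a hair keratin associated protein, was -0.55 (SE 0.11), and Defb37, a defensin, was -0.51 (SE 0.16). The count of lower genes was 18 without WT_female replicate 1 and 19 without KO_male replicate 1 or KO_female replicate 2. With a pseudocount of 16 added to each intensity, which damps dim genes, 0 of the 11 passed the size limit and 26 of the 34 higher genes did. Of the 330 genes that lay below every poor array at any size, 258 were above the median brightness, and among these only Snord35b reached the size limit.

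The remaining question is whether genotype, which was not used to choose the arrays, moves with the plexus level. Ttr was 10.6 ± 2.11 (SD, n = 6) in knockout and 11.8 ± 1.70 (SD, n = 6) in control arrays, a difference of -1.15 (two-sided exact permutation p = 0.320, adjusted p = 0.854 over 8 comparisons). Folr1 was 6.38 ± 0.21 in knockouts and 6.75 ± 0.39 in controls, a difference of -0.36 (exact permutation p = 0.0823, adjusted p = 0.658). Clic6 differed by -0.15 (exact permutation p = 0.491, adjusted p = 0.863) and Kl by -0.76 (exact permutation p = 0.294, adjusted p = 0.854). All 4 were lower on average in knockouts, but none passed the test, which does not show that the genotypes are alike. Between females and males Ttr differed by -0.33 (exact permutation p = 0.779), Folr1 by 0.13 (exact permutation p = 0.558), Clic6 by -0.10 (exact permutation p = 0.647) and Kl by 0.05 (exact permutation p = 0.959), all with adjusted p of 0.863 or more.

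Knockouts against controls over all 12 arrays gave 5 genes at an adjusted p under 0.05 (limma, Benjamini-Hochberg over all genes): 2 higher, which is 0.00902%, and 3 lower, which is 0.0135%. The higher genes were Ces3b, a carboxylesterase, at 0.52 (limma adjusted p = 0.00798), and 1110008P14Rik, which was named after its value was seen. No choroid plexus gene was among the 5, and 11 of the 151 had an unadjusted p under 0.05, beside 2053 of 22180 over all genes. Without WT_male replicate 3, the array with the raised Xist level, the count was 3. The 3 lower genes were Ciz1, Opalin, an oligodendrocyte protein of the paranodal myelin loop, and Hrk, a pro-apoptotic BH3 protein. With the log2 level of Ttr as a covariate 2 were higher, again 0.00902%, and 1, Ciz1, was lower, which is 0.00451%. Opalin went from -0.45 (limma adjusted p = 0.0370) to -0.47 (adjusted p = 0.0785) and Hrk from -0.37 (adjusted p = 0.0166) to -0.36 (adjusted p = 0.0736), so their sizes hardly moved while the calls were lost.

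Genes of the plexus were set beside that fit as a description only. The 33 higher genes other than Ttr were selected for separating rich arrays, of which 3 are controls and 2 knockouts, from poor arrays, of which 1 is a control and 3 are knockouts. A lower knockout mean, and its shrinking once Ttr is in the fit, are therefore largely built into that choice. Their median difference was -0.26, with 32 lower in knockouts, 1 with an unadjusted p under 0.05 and none past the adjusted threshold, and with Ttr as a covariate it was -0.02. The 151 choroid plexus genes, listed with results of these data known, had medians of -0.05 and -0.01. Htr2c went from -0.86 to -0.38, Kl from -0.76 to -0.10 and Folr1 from -0.36 to -0.20. Oligodendrocyte genes had a median of -0.21 without and -0.24 with the covariate. Both fits share all arrays.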

How the data were processed

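Per the labels, total RNA of mouse cerebellum from separate animals (6 lacking Ciz1 and 6 controls, 3 males and 3 females of each) was hybridised to whole-transcript arrays. The authors deposited each value as an RMA intensity on a linear scale, made with Expression Console at core-exon level, per the labels. The submitters' processing notes name Transcriptome Analysis Console 3.0 as well. No source used here names the build of the array annotation. Array medians were 96.5 to 98.7, log2 was taken without a pseudocount and nothing was normalized further.

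Of 41345 rows, 23521 carried 1 gene symbol, and the brightest such row per gene gave 22180 genes, of which 21994 matched the RefSeq table of GRCm38.p6. Differences between Ttr-rich and Ttr-poor arrays are from limma 3.58.1 (lmFit, R 4.3.3) with genotype as covariate, and their SE use the variances moderated by eBayes. They carry no test because a measured value chose the arrays. Knockout against wild type was tested with lmFit and eBayes on a mean per group of sex and genotype, two-sided, with Benjamini-Hochberg adjustment over all genes and a threshold of 0.05. Single markers were tested by exact permutation over the 12 arrays (scipy 1.17.1). The steps were tested on simulated data.

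The arrays compared, the 25 gene lists (640 entries, of which 53 had no row with their symbol alone) and the tests were chosen with earlier results of these data known. Named genes were Ttr, Folr1, Clic6, Kl and Ciz1, the 25 largest positive and 10 largest negative differences without overlap and with 1 sign in the 3 groups (leaving out predicted, Riken, olfactory, vomeronasal and small RNA symbols), the 3 largest of each list, and up to 5 genes per direction for genotype. Other genes, among them Mir1912, Snora35, Snord35b, Hamp, Moxd1, Zscan4c and members shown as near 0, were named after their values were seen. The alternatives were other covariates, scales, brightness limits, rows and markers, a slope on Ttr, and leaving out each array. No source used here gives scan dates or batches. The number of arrays limits the precision.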

Additional observations from a re-analysis of the deposited data

Results flagged for a closer look

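Of 72 sets of 4 or 5 values, the poor or the rich arrays of single genes, none held a value flagged by a Dixon gap test. In sets this small only an extreme gap is flagged. In 5 genes of the lists, every Ttr-rich array of WT_female lay on one side of every Ttr-poor array of that group while KO_male showed the opposite, and these differences between groups were not tested. The endothelial gene Rhoj was 0.65 higher in the rich arrays within WT_female and -0.17 within KO_male. The microglial genes Tyrobp and C1qc were -0.59 and -0.36 within WT_female and 0.32 and 0.12 within KO_male. Hoxb8 was -0.07 within WT_female and 0.25 within KO_male, and Aldh1a2, an enzyme of retinoic acid synthesis in meninges, was -0.20 and 0.65. These groups hold 3 arrays each.

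Rows outside the genes described also separated the classes by at least 0.5. Of the 1814 rows with several symbols, 4 were higher in all rich arrays, and none was lower. Of the 16010 rows with no symbol, 20 were higher and 33 lower. They were not named here.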

How the results depend on the processing

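The 34 higher and 11 lower genes became 35 and 5 without a covariate, 34 and 11 with sex added and 26 and 0 with a pseudocount of 16. They became 33 and 13 with arrays centred on their median, and 8 and 1 among genes above the median brightness. With sizes taken from a slope on Ttr over 12 arrays, 31 and 7 kept the size limit. That setting reused the separation of rich from poor arrays, so it could only remove genes. Ranking arrays by Folr1 chose the same arrays, ranking by Kl gave 33 and 10 (29 and 4 of them shared), and ranking by Clic6 gave 22 and 2 (14 and 1 shared). Leaving out 1 array gave 29 to 46 higher and 9 to 19 lower genes, with 18 lower without WT_female replicate 1 and 19 without KO_male replicate 1 or KO_female replicate 2. The 5 genes past the threshold for genotype became 3 with Ttr as covariate, 18 with an intensity trend, 14 among bright genes and 3 to 8 without 1 array (8 without WT_female replicate 3, and 3 without KO_female replicate 1 or 2, KO_male replicate 3, WT_female replicate 2, or either of WT_male replicates 2 and 3). Differences by sex changed sign, from -0.79 to 0.36 for Ttr, -0.32 to 0.46 for Kl, -0.19 to 0.0304 for Clic6 and -0.00256 to 0.24 for Folr1, and none of these passed the test. By genotype they stayed below 0. The markers and the genes named by rank (Ciz1 and list members not among them) kept their sign between the classes, and 11 such values moved by more than the spread between arrays. One setting, the arrays between the limits without WT_male replicate 3, was chosen after seeing the data. No paired analysis was possible because the labels carry no replicate numbers. With 4 and 5 arrays, small differences in dim genes are not resolved.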
